A study of Mus musculus with 6 samples.

Results

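Matrix metalloproteinases (MMPs) are zinc-dependent enzymes that cut collagens, laminins, elastin and other proteins of the tissue matrix, and the tissue inhibitors of metalloproteinases (TIMPs) bind to their active site and block them. The 10 genes described here were taken by symbol from the 23518 genes of the deposited table. They are 7 enzymes, Mmp2, Mmp3, Mmp9, Mmp10, Mmp12, Mmp13 and Mmp14, and 3 inhibitors, Timp1, Timp2 and Timp3. All 10 were found and all 10 passed the filter on low values. In skin, fibroblasts are a known source of the gelatinase MMP2 and its membrane-bound activator MMP14, macrophages of the elastase MMP12, and wound-edge keratinocytes and stromal cells of the stromelysins MMP3 and MMP10 and the collagenase MMP13. TIMP2 has a second role, since a complex of MMP14 with TIMP2 at the cell surface is the known docking site on which the MMP2 proenzyme is activated.

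The study sequenced RNA from the ear skin of 3 wild-type mice (WT) and 3 mice labelled HdR, whose HOIL1 protein, the product of Rbck1 and a subunit of the linear ubiquitin ligase LUBAC, lacks its RING1 domain. Every ear had been treated with 10 mg of a cream with 5% imiquimod, an agonist of Toll-like receptor 7 that induces psoriasis-like inflammation, and skin was taken on day 1. No untreated skin was analysed here, so the values compare genotypes under imiquimod. None of the sources used here names the cells in which the RING1 domain is missing, or the age, sex and strain of the mice. The libraries are called WT1 to WT3 and HdR1 to HdR3, as in the labels, which do not say whether libraries of 1 number share a litter or day.

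Values are sums of aligned bases per gene, scaled to bases per Mb of aligned sequence after correction for library composition, and are called coverage. Depth ran from 4433 to 5966 Mb per library, equal to 14.8 to 19.9 M read pairs, and 1 base per Mb stood for 11.7 to 23.6 read pairs. Rbck1, the altered gene, had a coverage of 66.6, 55.1 and 64.1 in WT1 to WT3, against 23.9, 13 and 19.7 in HdR1 to HdR3 (log2 change -1.70, adjusted p = 0.00438), and Krt14, a keratin of basal keratinocytes, read at least 2193 in every library. Across all 15049 genes tested, 30.6% passed the threshold of 0.05 on the adjusted p, 1904 of them upward in HdR and 2701 downward, and the median log2 change was -0.13. With scaling by total bases the split was 917 higher and 4305 lower with a median of -0.41, and with quantile normalization 2311 higher and 2092 lower with a median of -0.02. The slope of log2 coverage on log2 transcript length was 0.0404 to 0.247 in WT and -0.272 to -0.0805 in HdR, so that longer transcripts read relatively lower in HdR, and each member is therefore also given with this trend removed. The X-linked gene Xist averaged 1363 ± 346 in WT and 375 ± 137 in HdR (SD, n = 3 each). It was read in every library, from 216 in HdR2 to 1591 in WT1. Its transcript is long, 17946 nt, and its log2 change of -1.90 was -1.30 with the length trend removed. Tsix, the other sex-linked gene tested, has a transcript of 4306 nt. Its log2 change was -3.37 (adjusted p = 0.00161), and -3.05 with the length trend removed. The Y-linked genes Ddx3y, Kdm5d, Uty and Eif2s3y are not in the deposited table. Of the marker lists, hair follicle genes fell in 12 of 15 (summed coverage 504 to 732 in WT, 80.1 to 140 in HdR) and adipocyte genes rose in 8 of 10 (1072 to 1126, against 2885 to 3871). Skeletal muscle genes rose in 5 of 10 (2418 to 3534, against 4799 to 5807). The muscle count was 2 with the length trend removed and 1 without WT1. Basal keratinocyte genes fell in 2 of 9 (6376 to 7405, against 4605 to 5375), or 22.2%, near the 17.9% of all genes. The basal keratinocyte count was 0 without WT1, WT3, HdR1 or HdR2, or without a filter. None of 8 wound keratinocyte genes passed, and their sums overlapped (829 to 961, and 609 to 1296). The 45S ribosomal RNA gene Rn45s took 0.102% to 0.119% of bases in WT and 0.368%, 1.54% and 1.21% in HdR1 to HdR3. The part of these differences in the results below was not tested. In bulk skin, fewer cells of a type and less RNA per cell cannot be told apart.

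The 4 members Mmp3, Mmp10, Mmp12 and Mmp13 lie near each other on chromosome 9, and the stretches of DNA just before their transcription starts are printed to show what these neighbours share in sequence. Each stretch holds the 250 bases before a start in RefSeq (GRCm38.p6), 5′ to 3′ on the plus strand, which is the strand of all 4 genes. Capitals mark the AP-1 motif TGANTCA, bound by Fos and Jun dimers, and the TATA box letters TATAAA. Mmp12 has 2 starts in the RefSeq table, so both are given.
Mmp3, chr9:7445572-7445821: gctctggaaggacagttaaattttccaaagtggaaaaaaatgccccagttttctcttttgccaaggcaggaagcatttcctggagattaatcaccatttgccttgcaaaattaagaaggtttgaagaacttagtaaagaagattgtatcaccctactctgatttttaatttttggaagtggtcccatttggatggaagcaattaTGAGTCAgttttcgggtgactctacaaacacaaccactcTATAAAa
Mmp10, chr9:7502092-7502341: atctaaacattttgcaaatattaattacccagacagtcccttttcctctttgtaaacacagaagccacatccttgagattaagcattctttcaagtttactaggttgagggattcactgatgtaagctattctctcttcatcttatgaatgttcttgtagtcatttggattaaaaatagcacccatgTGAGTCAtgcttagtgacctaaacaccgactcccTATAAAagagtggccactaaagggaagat
Mmp13, chr9:7272264-7272513: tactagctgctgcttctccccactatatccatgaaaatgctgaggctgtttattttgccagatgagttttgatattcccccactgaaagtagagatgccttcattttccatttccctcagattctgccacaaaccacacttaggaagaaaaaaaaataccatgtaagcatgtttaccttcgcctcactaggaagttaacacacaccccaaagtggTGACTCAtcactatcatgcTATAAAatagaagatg
Mmp12 first start, chr9:7344147-7344396: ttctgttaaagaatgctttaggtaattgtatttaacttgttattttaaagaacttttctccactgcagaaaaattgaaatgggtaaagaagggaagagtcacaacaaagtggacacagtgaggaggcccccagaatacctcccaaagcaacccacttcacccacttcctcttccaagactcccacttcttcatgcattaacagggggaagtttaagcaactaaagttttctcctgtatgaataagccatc
Mmp12 second start, chr9:7347124-7347373: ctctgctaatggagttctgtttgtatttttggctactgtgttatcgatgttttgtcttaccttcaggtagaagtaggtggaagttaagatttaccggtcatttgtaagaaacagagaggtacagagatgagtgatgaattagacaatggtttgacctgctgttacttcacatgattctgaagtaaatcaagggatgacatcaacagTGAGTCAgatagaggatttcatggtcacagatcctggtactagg

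Mmp3, Mmp10 and Mmp13 share a layout in which an AP-1 motif is followed by the letters TATAAA, at differing distances from the start. The AP-1 motif begins 46, 63 and 35 bases before the start in Mmp3, Mmp10 and Mmp13. The letters TATAAA begin 7, 29 and 16 bases before it, and whether they act as a TATA box was not tested. Of 32851 RefSeq windows of the same length, 6.75% hold an AP-1 motif on either strand, 12.4% the letters TATAAA and 1.22% both (TATAAA was also searched on both strands). The window of the first Mmp12 start holds neither, and that of the second start holds an AP-1 motif 44 bases before it and no TATAAA. The windows of Mmp14, Timp1, Timp2 and Timp3 hold neither motif. A match of letters shows neither binding nor use of a site. Mmp2 and Mmp9 have no entry in the promoter table.

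In HdR skin 3 of the 10 genes changed: Mmp12 rose, and Mmp2 and Mmp14 fell. The remaining enzymes Mmp3, Mmp9, Mmp10 and Mmp13 and the inhibitors Timp1, Timp2 and Timp3 did not pass the test. These counts, 1 of 10 higher and 2 of 10 lower, stand beside 12.7% higher and 17.9% lower among all genes tested, so the share of the family that changed lay near the background. The median log2 change of the 10 genes, -0.13, equalled that of all genes to 2 decimals. The ranges of the genotypes did not overlap for 4 of 10 members, with Mmp12 above and Mmp2, Mmp3 and Mmp14 below, against 51.5% of all genes (20.9% above and 30.7% below). With the length trend removed, Mmp12 and Timp3 were higher and no member was lower, where 19.5% of all genes changed (11% higher and 8.47% lower). None of the 10 passed without WT1, WT3, HdR1 or HdR2, or without a filter on low values.

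**Figure D1:**
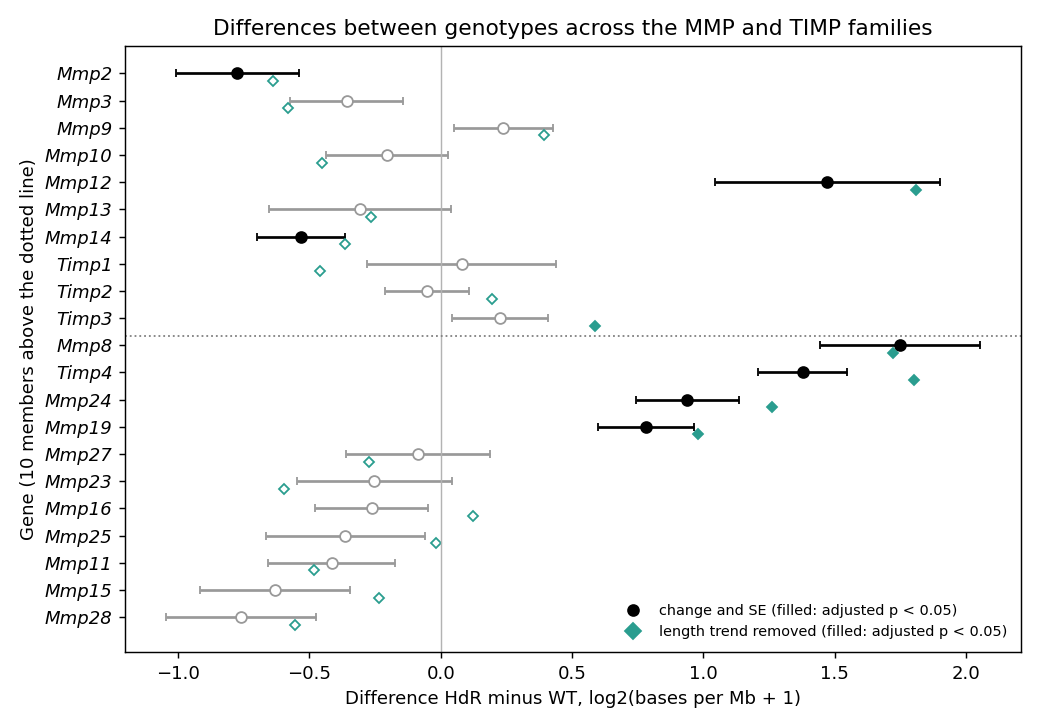
Differences between genotypes, as log2(bases per Mb + 1) of HdR minus WT, for the 10 members and, under the dotted line, the 11 other family genes tested. Circles with bars give the change and its SE, diamonds the change with the length trend removed, and filled marks an adjusted p under 0.05. Mmp12 lies at 1.47 and Mmp2 and Mmp14 lie at -0.78 and -0.53 as tested, and Timp3 moves from 0.22 to 0.59 when the length trend is removed.

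Per kb of transcript, the inhibitors Timp3 and Timp2 headed the family, while Timp1 lay among the enzymes. Timp3 averaged 112 bases per Mb per kb over the 6 libraries and Timp2 95.6, and every library of Timp2 lay above its own value for Mmp14, the next gene at 43.1. Mmp14, Timp1 (40.6), Mmp2 (40.6) and Mmp3 (35.9) overlapped with their neighbours in this order. These means pool both genotypes, and the order within each differed: Mmp2 (51.4) and Mmp14 (51.0) averaged above Timp1 (39.99) in WT, and below it in HdR (29.7, 35.1 and 41.3). A second gap followed, since the per-kb level of Mmp3 was above that of Mmp12 in all 6 libraries, at a mean of 1.73 for Mmp12. Mmp12, Mmp13 (1.34), Mmp9 (0.933) and Mmp10 (0.740) were not separated beyond their spread. Mmp12 had the highest mean of these 4 in HdR (2.65). In WT its mean (0.813, SD 0.481) was not told apart from those of Mmp10 (0.827) and Mmp9 (0.833). Not divided by length, the WT mean of Mmp12 (3.64) was above those of Mmp9 (2.65) and Mmp10 (1.42). Mmp2, Mmp3 and Mmp14 together made up 96.4% to 97.9% of the summed per-kb level of the 7 enzymes in WT and 93.2% to 95.9% in HdR.

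**Figure D2:**
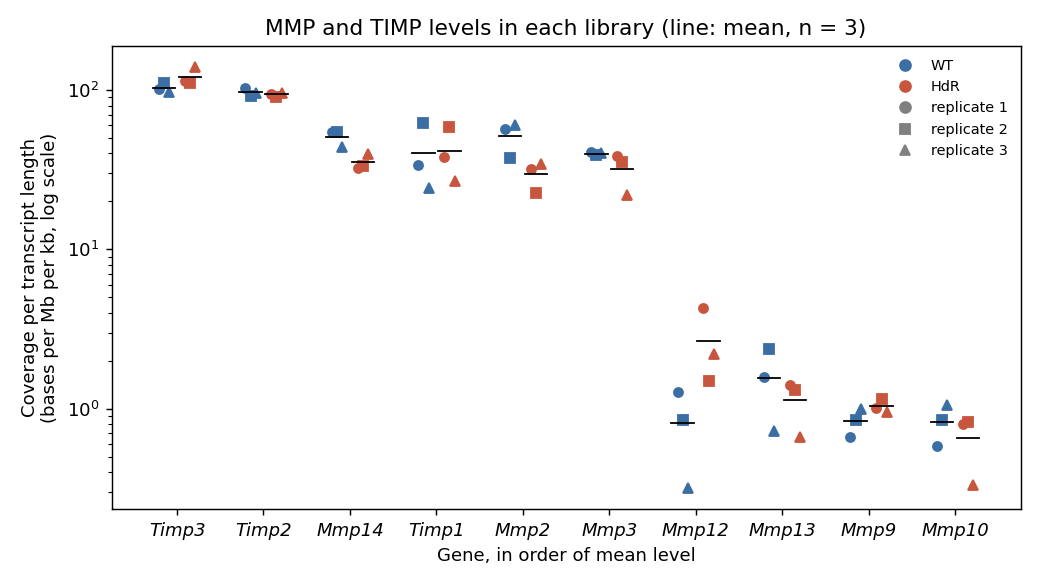
Coverage of the 10 members per kb of transcript in each library, in bases per Mb per kb on a log axis, with a point for each of the 3 WT and 3 HdR libraries and a line for the mean. The HdR points of Mmp12 lie above all WT points, those of Mmp2, Mmp3 and Mmp14 lie below, and those of the other 6 genes overlap.

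Mmp2 (chr8:92827291-92853420, plus strand, 13 exons in the longest transcript, GENCODE M21 on GRCm38) encodes the gelatinase that cuts denatured collagen and basement membrane collagen. Its coverage was 175, 115 and 185 in libraries WT1 to WT3 and 98.9, 69.5 and 106 in HdR1 to HdR3. All HdR libraries lay below all WT libraries, with WT2 the lowest of its genotype and HdR2 the lowest of all. The mean was 158 ± 38.1 in WT and 91.5 ± 19.4 in HdR (SD, n = 3 each), a log2 change of -0.78 (SE 0.23, adjusted p = 0.0371). Removal of the length trend left a log2 change of -0.64 that missed the threshold (adjusted p = 0.0596). The call was also lost without WT1 (adjusted p = 0.135), WT3 (0.118), HdR1 (0.0686) or HdR2 (0.105).

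Mmp14 (chr14, plus strand, 10 exons) encodes MT1-MMP, the membrane-bound collagenase that activates MMP2. WT libraries held 176, 177 and 142 and HdR libraries 106, 107 and 128. The lowest WT library, replicate 3, lay above the highest HdR library, also replicate 3. The mean fell from 165 ± 20.4 to 114 ± 12.6 (SD, n = 3 each), a log2 change of -0.53 (SE 0.17, adjusted p = 0.0401). The length trend removed, it was -0.36 (adjusted p = 0.119), and with median-of-ratios scaling -0.47 (adjusted p = 0.0579). Leaving out any library other than HdR3 took the adjusted p to between 0.0663 and 0.171.

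Mmp3 (chr9, plus strand, 10 exons) encodes stromelysin 1, which cuts many matrix proteins and activates other MMPs. WT libraries were close together at 73.8, 70.0 and 72.0, while HdR libraries read 69.4, 63.9 and 39.3. The ranges touched without overlapping, and HdR3 stood far below the other 5 libraries. The means were 71.9 ± 1.90 and 57.5 ± 16.0 (SD, n = 3 each), with a log2 change of -0.36 (SE 0.22, adjusted p = 0.219) that did not pass the test. Without HdR3 the log2 change was -0.11. Mmp3 passed as lower with scaling by total bases (log2 change -0.67, adjusted p = 0.0444) and with the length trend removed in a fit blocked on replicate number (-0.58, adjusted p = 0.0440).

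Mmp12 (chr9:7344381-7369499, plus strand) encodes macrophage elastase. Its coverage was 5.72, 3.77 and 1.42 in WT and 19.1, 6.64 and 9.79 in HdR, which corresponds to 33.4 to 312 read pairs per library. Each HdR library was above each WT library, but HdR2 lay only slightly above WT1, and both genotypes spread widely. The mean rose from 3.64 ± 2.15 to 11.8 ± 6.47 (SD, n = 3 each), a log2 change of 1.47 (SE 0.43, adjusted p = 0.0338), and 1.81 with the length trend removed (adjusted p = 0.0250). The longest Mmp12 transcript in the annotation, 4474 nt with 7 exons, need not be the one expressed, and both the per-kb level and the corrected change depend on it. The call was lost with scaling by total bases (log2 change 1.22, adjusted p = 0.0674). Leaving out any library other than WT2 took the adjusted p to between 0.0525 and 0.0915. Mmp12 shares 157 exon bases with Mmp1b on the opposite strand, and no source used here says whether reads were assigned by strand. Mmp1b averaged 1.02 ± 0.127 in WT and 0.705 ± 0.178 in HdR.

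Markers of monocytes and macrophages, the cells for which Mmp12 is named, moved in the same direction. Of 14 genes on that list, all tested, 7 rose and none fell (50% higher, beside 12.7% higher and 17.9% lower among all genes). Their summed coverage was 1225 to 2296 in WT and 3296 to 3756 in HdR. Cd163, encoding a scavenger receptor of tissue macrophages, rose from 14.8 ± 2.52 to 41.8 ± 6.94 (log2 change 1.43, adjusted p = 0.00465). Lyz2, the lysozyme gene of myeloid cells, rose from 585 ± 223 to 1779 ± 212 (log2 change 1.67, adjusted p = 0.0100). Without WT1 only 1 of the 14 passed, without HdR1 only 2, without WT3 only 3, and without HdR2 only 4. Without a filter on low values 2 passed, and with scaling by total bases 4. The part of macrophage content in the Mmp12 difference was not tested.

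For Mmp2 and Mmp14 the matching list is that of fibroblasts, of which 1 of 14 genes rose and 2 fell, Col1a1 and Col1a2 (7.14% and 14.3%, beside 12.7% and 17.9% of all genes). These counts depended on the processing, with 7 lower by total scaling, 4 lower by quantile normalization, 2 higher and 4 lower with the replicate block, and 3 higher and 1 lower with the length trend removed, where Col1a2 did not pass (adjusted p = 0.243). Summed coverage of the fibroblast list overlapped between genotypes, at 5865 to 8338 in WT and 6555 to 8108 in HdR. Endothelial genes fell in 2 of 10, a share near that of all genes, and in none without WT1, WT3, HdR1 or HdR2, with quantile normalization or with the length trend removed. Cartilage genes fell in 4 of 11 tested, with summed coverage of the cartilage list at 211 to 401 in WT and 197 to 217 in HdR. The cartilage count was 0 without WT1, 2 without WT3, HdR1 or HdR2, and 7 without WT2. The part of these cells in the Mmp2 and Mmp14 differences was not tested.

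The low-coverage enzymes Mmp9, Mmp10 and Mmp13 did not pass the test, and in each the genotypes overlapped. Mmp9 (chr2), the gelatinase carried by neutrophils and macrophages, had coverages of 2.11, 2.69 and 3.14 in WT, against 3.19, 3.65 and 3.0 in HdR (log2 change 0.24, adjusted p = 0.343). Mmp10 (chr9), stromelysin 2, had 1.00, 1.46 and 1.81 in WT, against 1.38, 1.42 and 0.568 in HdR (log2 change -0.20, adjusted p = 0.512), with as few as 8.23 read pairs' worth of bases in HdR3. Mmp13 (chr9), the main interstitial collagenase of the mouse, had 4.19, 6.37 and 1.94 in WT, against 3.77, 3.49 and 1.78 in HdR (log2 change -0.31, adjusted p = 0.511). In both genotypes replicate 3 was the lowest for Mmp13. Depth limits what can be seen in these 3 genes, and a missed threshold does not show equal levels. The sign of the Mmp9 change turned with scaling by total bases (-0.000865), that of Mmp10 without HdR3 (0.00138) and that of Mmp13 without WT2 (0.0128).

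Most neutrophil markers tested were higher in HdR, while Mmp9 did not pass the test. Of the 8 neutrophil genes tested, of 14 listed, 6 rose (75%, beside 12.7% of all genes) and none fell. Mmp8, given below with the cluster, is among the 6. Summed coverage of the list was 296 to 352 in WT and 848 to 3449 in HdR. S100a8 and S100a9 read 1421 and 1708 in HdR2, and so made up most of the sum of that library. Retnlg rose from 1.38 ± 0.679 to 14.3 ± 6.35 (log2 change 2.62, adjusted p = 0.00460), and S100a8, a subunit of calprotectin, from 61.7 ± 9.94 to 689.8 ± 638.5 (log2 change 3.07, adjusted p = 0.00979). The granule and surface genes Ly6g, Mpo, Elane, Camp, Ltf and Ngp were below the filter on low values. The part of neutrophil content in the Mmp8 and Mmp9 values was not tested.

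Of the inhibitors, Timp1 (chrX, plus strand, 6 exons) is the secreted form that is induced by inflammatory cytokines. The WT libraries held 29.8, 54.7 and 21.5 and the HdR libraries 33.7, 51.8 and 23.8, so that replicate 2 was the highest and replicate 3 the lowest in both genotypes. The log2 change was 0.08 (SE 0.36, adjusted p = 0.875). Timp1 has the shortest transcript of the family, 883 nt, and within each genotype its order over the libraries was the reverse of the order of the length slopes. With the length trend removed its log2 change was -0.46 (adjusted p = 0.226), and with the replicate block added it passed as lower (adjusted p = 0.0304). The sign also turned with scaling by total bases (-0.23) and without WT3 (-0.20) or HdR2 (-0.20), so no direction can be given for Timp1. The gene lies within an intron of Syn1 on the opposite strand and shares no exon bases with it.

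Timp2 (chr11, minus strand, 5 exons), the inhibitor that also takes part in MMP2 activation, was the steadiest member. Its coverage was 383, 343 and 358 in WT, against 352, 335 and 357 in HdR, and the genotypes overlapped. The log2 change was -0.05 (adjusted p = 0.817), with a sign that turned under median-of-ratios scaling (0.0125) and with the length trend removed (0.20).

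Timp3 (chr10, plus strand, 5 exons), the inhibitor that is bound to the matrix and also blocks ADAM proteases such as the TNF-releasing enzyme ADAM17, had the highest coverage of the family. The WT libraries held 479, 524 and 462, and the HdR libraries 540, 519 and 659. HdR2 fell inside the WT range and HdR3 was the highest library. The means were 488 ± 31.9 and 573 ± 75.7 (SD, n = 3 each), with a log2 change of 0.22 (adjusted p = 0.357). Its transcript is long, 4722 nt, and with the length trend removed Timp3 passed as higher (log2 change 0.59, adjusted p = 0.0393, and 0.0167 with the replicate block added). With scaling by total bases the log2 change was -0.10 and with quantile normalization -0.18, so the direction of Timp3 depended on how libraries were put on 1 scale. Timp3 shares 1733 exon bases with Syn3 on the opposite strand, but Syn3 read only 3.12 ± 0.413 in WT and 2.15 ± 0.360 in HdR.

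Taking enzymes over inhibitors within each library removes any factor that scales a whole library. The summed per-kb level of the 7 enzymes was 0.656, 0.512 and 0.672 times that of the 3 inhibitors in WT and 0.448, 0.370 and 0.380 times in HdR. All HdR ratios lay below all WT ratios, with means of 0.613 ± 0.0882 and 0.400 ± 0.0421 (SD, n = 3 each), a log2 difference of -0.61 that stayed between -0.74 and -0.54 when any library was left out. No test was made of a score over the members. Among all single genes tested, 30.7% had all HdR libraries below all WT libraries. The numerator was 136 to 156 bases per Mb per kb in WT and 96.0 to 111 in HdR, while the denominator overlapped, at 219 to 265 and 247 to 263. Not divided by transcript length, the log2 difference was -0.64.

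Single pairs showed where the ratio differed. Mmp14 over Timp3 had the tightest values, 0.537, 0.494 and 0.447 in WT and 0.285, 0.302 and 0.284 in HdR. Mmp14 over Timp2, the pair that docks the MMP2 proenzyme, averaged 0.525 ± 0.0699 in WT and 0.374 ± 0.0344 in HdR, and Mmp2 over Timp2 averaged 0.526 ± 0.112 and 0.315 ± 0.0578 (SD, n = 3 each). The genotypes did not overlap in any of these 3 ratios. Mmp14 and Timp2 each occur in more than 1 of them, so they are not separate results. Among all single genes tested, the ranges of the genotypes did not overlap for 51.5%. Mmp2 over Mmp14, at 1.03 ± 0.347 and 0.846 ± 0.154, and Mmp3 over Timp1, at 1.16 ± 0.510 and 0.808 ± 0.203, overlapped. Mmp12 over Mmp13, both encoded in the chromosome 9 cluster, went from 0.535 ± 0.246 in WT to 2.48 ± 1.17 in HdR without overlap.

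**Figure D3:**
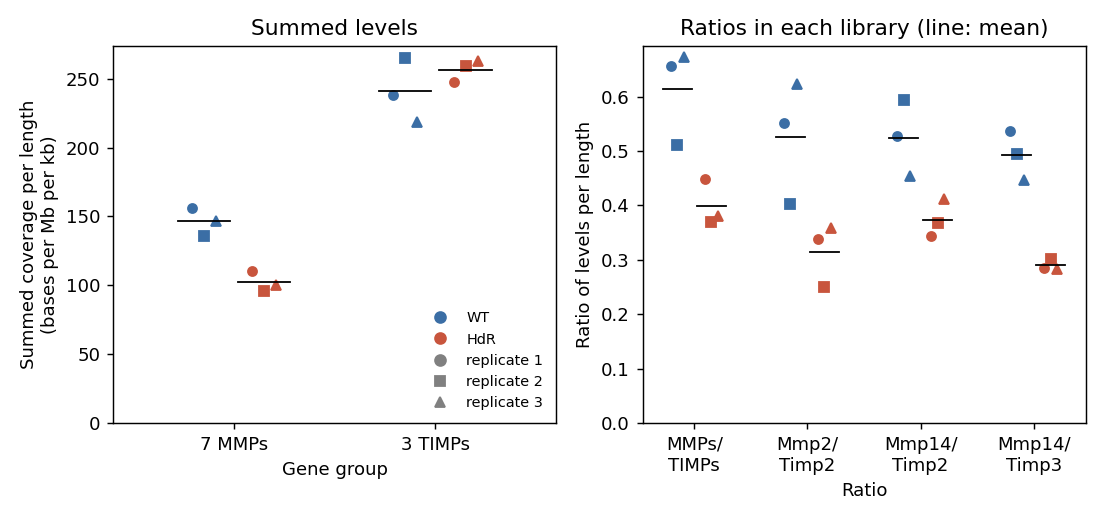
Summed coverage per kb of the 7 enzymes and 3 inhibitors (left) and ratios of per-kb levels within each library (right), with a point for each library and a line for the mean. The HdR points lie below the WT points in the summed enzymes and in all 4 ratios shown, and overlap with them in the summed inhibitors.

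Mmp3, Mmp10, Mmp12 and Mmp13 are part of a cluster of 10 MMP genes on chromosome 9 that spans 427.1 kb, from Mmp13 to Mmp7, with 1 other gene of the table inside it. Of the 6 cluster genes tested, Mmp12 and the neutrophil collagenase gene Mmp8 were higher in HdR, and Mmp13, Mmp3, Mmp10 and Mmp27 did not pass the test. Mmp8, 285.9 kb from the start of Mmp13, rose from 1.20 ± 0.297 to 6.78 ± 2.91 (SD, n = 3 each, log2 change 1.75, adjusted p = 0.00987). Mmp3 and Mmp10, which lie between Mmp12 and Mmp8, had log2 changes of -0.36 and -0.20. The difference between neighbours was not itself tested. Mmp1a, Mmp1b, Mmp7 and Mmp20 were below the filter.

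**Figure D4:**
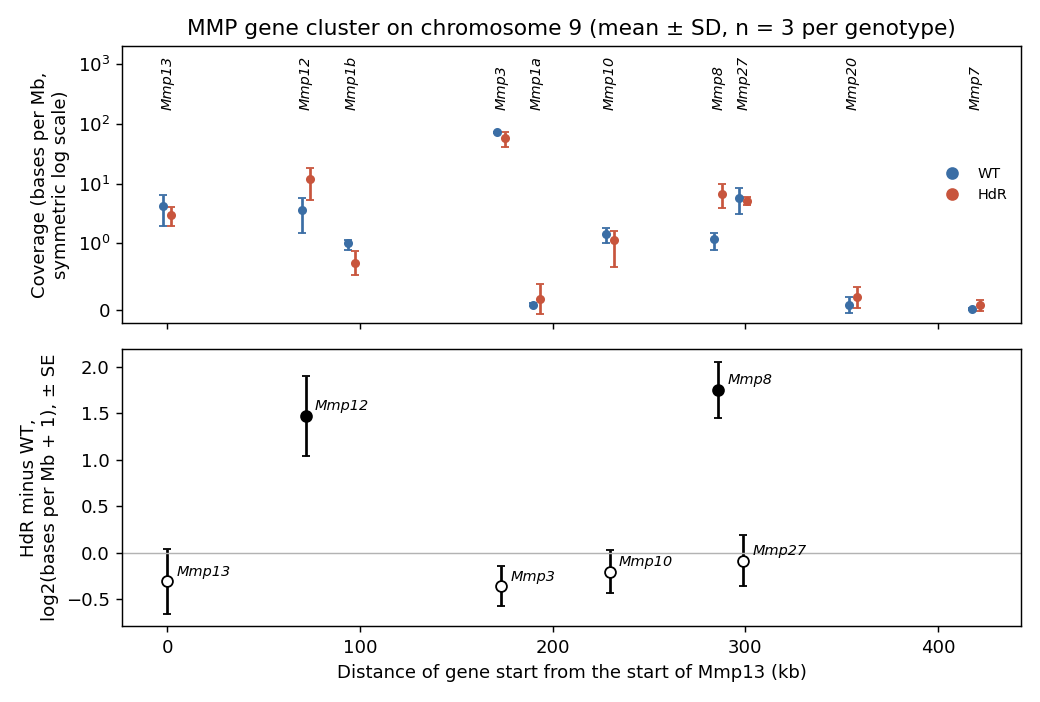
The MMP cluster on chromosome 9 by distance of each gene's start from that of Mmp13 in kb, with coverage as mean ± SD above (n = 3 per genotype, symmetric log axis) and the log2 difference ± SE of the 6 tested genes below. Filled points mark the genes that passed the test, Mmp12 and Mmp8, and open points those that did not.

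Of the other MMP genes and Timp4, 17 in all, 11 passed the filter, and of these 4 rose, Mmp8 among them, and none fell (12.7% and 17.9% of all genes). Timp4, an inhibitor known from adipose tissue, heart and vessels, had the smallest p of the 11, at 26.6, 29.1 and 36.9 in WT, against 84.2, 85.7 and 73.9 in HdR (log2 change 1.38, adjusted p = 0.00357). The adipocyte marker Fabp4 rose from 358 ± 55.0 to 1708 ± 413 (log2 change 2.23, adjusted p = 0.00202) in the same libraries, and the part of fat in the Timp4 difference was not tested. Mmp24, a membrane-bound MMP, rose from 10.0 ± 2.42 to 19.9 ± 1.52 (log2 change 0.94, adjusted p = 0.0142), a call lost without WT1 (adjusted p = 0.0690). Mmp19 rose from 32.3 ± 5.87 to 55.9 ± 6.24 (log2 change 0.78, adjusted p = 0.0184). The Mmp19 call was lost with scaling by total bases (adjusted p = 0.115) and without WT1 (0.0701), WT3 (0.0664) or HdR1 (0.0504). Mmp28, the epidermal enzyme epilysin, read 9.91 ± 3.25 and 5.38 ± 1.59 (log2 change -0.76, adjusted p = 0.0701) and passed as lower in the fit blocked on replicate number (adjusted p = 0.00900). Mmp24 and Mmp19 share 637 and 789 exon bases with genes on the opposite strand.

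The related ADAM and ADAMTS metalloproteases, several of which TIMP3 inhibits, fell in 11 of 24 tested and rose in none. The share lower was 45.8%, beside 17.9% lower and 12.7% higher among all genes. Their median log2 change was -0.46, beside -0.13 for all genes, and -0.071 beside 0.00349 with the length trend removed. Adam12 fell from 6.92 ± 1.00 to 1.20 ± 0.239 (log2 change -1.85, adjusted p = 0.00191), and Adamts12 from 13.03 ± 1.25 to 3.83 ± 0.262 (-1.54, adjusted p = 0.00276). Adamts20 and Adam33 fell by 1.06 and 1.21 on the log2 scale, and the Adamts20 call was lost with the length trend removed (adjusted p = 0.0560). With the length trend removed 5 were lower and 1 higher, where 8.47% of all genes were lower and 11% higher. The count lower was 2 without WT1 and 6 without WT3.

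Coverage of genes for matrix proteins that MMPs cut fell in 9 of 26 and rose in none. The share lower was 34.6%, beside 17.9% lower and 12.7% higher among all genes. Their median log2 change was -0.52, beside -0.13 for all genes, and -0.13 beside 0.00349 with the length trend removed. Col1a1, a chain of type I collagen, fell from 344 ± 58.2 to 93.8 ± 30.4 (log2 change -1.90, adjusted p = 0.00503). Bgn, the small proteoglycan biglycan, fell from 381 ± 57.9 to 130 ± 35.1 (-1.56, adjusted p = 0.00629). Col5a2 and Col5a1, chains of type V collagen, fell by 1.14 and 1.18 on the log2 scale, but with the length trend removed they stood at -0.65 (adjusted p = 0.0754) and -0.64 (0.0651) and did not pass. With the length trend removed 5 genes were lower and 2 higher, where 8.47% of all genes were lower and 11% higher. Without WT1 only 2 were lower, with the replicate block 14 were lower and 1 higher, and with scaling by total bases 15 were lower. The fibroblast list, whose summed coverage overlapped between the genotypes, shares Col1a1, Col1a2, Col3a1, Dcn and Lum with this list and is no separate measure. The part of fibroblast content in the matrix differences was not tested.

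Among activators and binding partners of MMPs, 3 of 25 tested rose (12%, near the 12.7% of all genes) and none fell. Plaur, the urokinase receptor that gathers plasminogen activation at the cell surface, rose from 10.7 ± 1.58 to 18.6 ± 0.932 (log2 change 0.76, adjusted p = 0.0172). The mast cell tryptase genes Tpsb2 and Tpsab1, whose related sequences can make some reads hard to assign, rose by 0.79 and 1.17 on the log2 scale. Both lost their call with the length trend removed (adjusted p = 0.1004 and 0.0555). St14, encoding matriptase, had a log2 change of -0.64 (adjusted p = 0.0501) and did not pass. None rose without WT1 or WT3, 1 rose without HdR1 and 5 rose and 5 fell without WT2. With scaling by total bases none rose and 6 fell, and with the replicate block 7 rose and 4 fell, so the direction of this list depended on the scaling.

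Cytokines and growth factors known to induce MMP genes rose in 7 of 17 tested and fell in 2 (41.2% and 11.8%, beside 12.7% and 17.9% of all genes). Il6 rose from 1.63 ± 0.775 to 9.74 ± 3.59 (log2 change 2.02, adjusted p = 0.00782), and Il1b from 21.7 ± 14.1 to 72.8 ± 21.0 (1.85, adjusted p = 0.0154). Tnf rose from 11.8 ± 2.79 to 25.4 ± 4.39 (1.05, adjusted p = 0.0137), and the EGF receptor ligand gene Areg from 3.14 ± 0.353 to 8.53 ± 2.16 (1.18, adjusted p = 0.0113). The count higher was 4 without WT1, WT3 or HdR1, 3 without HdR2 and 3 with scaling by total bases. The count lower was 0 without WT1, WT3 or HdR2 or without a filter, and 1 with quantile normalization or the length trend removed. Mmp3, Mmp10, Mmp13 and Timp1, given above, did not pass the test in these libraries, which does not show equal levels. A link between these cytokines and any member was not tested.

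Of 18 tested genes for AP-1, ETS and NF-kB factors, 2 rose and 1 fell (11.1% and 5.56%, no more than the 12.7% and 17.9% of all genes). Fos, which encodes a partner in the AP-1 dimer that binds the motif printed above, rose from 31.0 ± 2.91 to 84.5 ± 13.8 (log2 change 1.41, adjusted p = 0.00357). Junb had a log2 change of 0.68 (adjusted p = 0.0290), and Rel, encoding the NF-kB subunit c-Rel, fell by 0.85 on the log2 scale (adjusted p = 0.0385). Etv4, an ETS factor, did not pass (-0.48, adjusted p = 0.0731). The Junb call was lost with the length trend removed (adjusted p = 0.0960) and the Rel call likewise (0.248). The count higher was 1 without WT1, WT3, HdR1 or HdR2, and the count lower was 0 without WT1, WT3, HdR2 or HdR3 and 4 without WT2 or with the replicate block.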

How the data were processed

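RNA of 6 ear skin libraries (3 WT, 3 HdR) was made into NEBNext Ultra II libraries, per the labels. The deposited signal is coverage, the sum of aligned bases per gene, for 23518 symbols; the submitters' processing notes give GRCm38, and for the aligner, counting program, annotation and strandedness nothing is stated in the sources used here. Of low values, 10.2% are exact multiples of 300, as pairs of 150-base reads would give, beside 0.333% by chance. The unit is inferred from this and from the file description, and no count model was used.

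Libraries were scaled by the trimmed mean of M values (30% and 5% trimmed). The filter kept genes at 1 base per Mb or more in 3 or more libraries. The test was limma with an intensity trend and robust variances (limma 3.58.1 in R 4.3.3), two-sided and without covariates, on log2(value + 1), a scale that understates the change of low genes. All adjusted p-values are Benjamini-Hochberg values over all 15049 genes tested, with a threshold of 0.05. They measure only the spread between these samples. The script was tested on simulated data. The length trend, removed from each library, was a spline with 4 degrees of freedom on the log2 length of the longest GENCODE M21 transcript, known for 99.0% of genes tested. The members and lists were chosen with earlier results of these data known. All members are named, and from each list up to 4 genes with the smallest p; of the other MMPs, those that passed and up to 6 in all. Krt14, Fabp4, Xist, Tsix, Syn3 and Mmp1b are named in addition, chosen after their values were seen.

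After removal of genotype means, same-numbered WT and HdR libraries correlated across genes with r = 0.163, 0.416 and 0.366. Differently numbered libraries ranged from -0.377 to 0.159, and WT1 with HdR3, at 0.159, was close to WT1 with HdR1. These values do not settle a pairing, which the labels do not state. The main test was unpaired, and the fit blocked on replicate number is given only as an alternative. Alternatives were other scalings, filters and pseudocounts, the replicate block, the length trend and leaving out each library. Motifs were searched with Python 3.11.15.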

Additional observations from a re-analysis of the deposited data

How the results depend on the processing

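The number of genes changed, 4605, was 2144 without a filter, 2930 with the length trend removed, and 427 (without WT1) to 6016 (without WT2) when a library was left out. The number of members changed, 3, was 0 without a filter and 0 to 2 with a library left out, and the genes changed in the other lists, 87, were 36 to 110 with a library left out and 118 with the replicate block. With the replicate block 6843 genes and 3 members (Mmp2, Mmp12 and Mmp14) changed, and with the block and the length trend removed together 5 members changed (Mmp12 and Timp3 higher, Mmp2, Mmp3 and Timp1 lower). The block changed no member's call on its own.

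Under the 15 alternatives, Mmp2 passed in 9, Mmp12 in 8 and Mmp14 in 6, each with its direction kept in all 15. The log2 change turned sign with scaling by total bases for Mmp9 (-0.000865), Timp1 (-0.23) and Timp3 (-0.10), and with quantile normalization for Timp3 (-0.18). It turned with median-of-ratios scaling for Timp2 (0.0125), and with the length trend removed, with or without the block, for Timp1 (-0.46) and Timp2 (0.20). With a library left out it ranged from -0.33 to 0.00138 for Mmp10 (turned without HdR3), from -0.65 to 0.0128 for Mmp13 (turned without WT2) and from -0.20 to 0.46 for Timp1 (turned without WT3 or HdR2). None of these 6 genes had passed the test, and the cause was not tested. The MMP to TIMP ratio kept its sign without each library. Coverage of Mmp9, Mmp10, Mmp12 and Mmp13 rested on 8.23 to 312 read pairs per library, which limits their precision.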
